A study of Mus musculus with 8 samples.

Results

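Opposite-strand (os) and overlapping (ot) transcripts are long non-coding RNAs (lncRNAs) named after a protein-coding gene that they run against or span. The 86 described here were every gene not annotated as protein coding whose symbol ends in os or ot after another letter or digit, with an optional number, and that held at least 10 counts in at least 4 samples, leaving out Kcnq1ot1. By name 292 genes of the 48709 listed fitted, and 206 of them were not kept, of which 53 had 0 counts in every sample. RNA was sequenced from cortex of mice at postnatal day 3 on a C57BL/6J background, in 4 samples labelled BAF cKO and 4 samples labelled as wild type. By the study's methods the mutants, dcKO_hGFAP-Cre, carried BAF155 fl/fl, BAF170 fl/fl and hGFAP-Cre pos/+, while the controls carried BAF155 fl/+, BAF170 fl/+ and Cre pos/+, so that Cre was present and a floxed copy of each gene could be lost in both groups. In the hGFAP-Cre line a human GFAP promoter drives the recombinase, which is prominent in radial glia of the dorsal telencephalon. The samples are called control 1 to 4 and dcKO 1 to 4 after the numbers in the labels.

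Many developmental regulators are transcribed together with a non-coding RNA from the opposite strand, often from a promoter that fires in both directions. Such RNAs can act on the partner gene in cis, act elsewhere, or be by-products of open chromatin. BAF155 and BAF170 are scaffold subunits of the BAF (mSWI/SNF) complex, which moves and evicts nucleosomes at promoters and enhancers, and Dlx6os1, the locus of the lncRNA Evf2, is known for a transcript that binds DLX proteins and the BAF ATPase BRG1.

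Total counts were 21126713 to 31805395 in the controls and 22002784 to 32110285 in the dcKO samples. The RNA of both deleted genes was lower in the dcKO cortex, Smarcc1 (BAF155) at 159 ± 11.2 CPM (counts scaled to a common library size) in controls and 81.1 ± 5.90 in dcKO and Smarcc2 (BAF170) at 483 ± 14.8 and 283 ± 28.2 (SD, n = 4). Of 9 dorsal cortex markers 7 were lower and none was higher, with a summed level of 1840 to 2002 CPM in controls and 1000 to 1116 CPM in dcKO, and all 9 were still detected in every sample. Markers of the oligodendrocyte lineage were lower (8 of 8) and those of microglia mostly higher (5 of 7). The choroid plexus list summed to 626 CPM in dcKO 1 and 1192 CPM in dcKO 2 but to 8.66 to 23.9 CPM in the other dcKO samples and 8.23 to 17.01 CPM in controls, so counts that rest on dcKO 1 and 2 are also given without them. Because the tissue was sequenced in bulk, a change in the number of cells of a type and a change in RNA per cell cannot be told apart.

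The lncRNAs were higher in the dcKO cortex far more often than lower. At an adjusted p under 0.05 (edgeR quasi-likelihood test, Benjamini-Hochberg adjustment over the 16648 genes tested), 22 of the 86 were higher in dcKO, 2 were lower and 62 did not pass. The background was 18.5% of all genes tested called higher and 18.8% called lower, against 25.6% and 2.33% of the lncRNAs. Among the 1988 other non-coding genes tested, 18.1% were higher and 5.68% were lower, and among protein-coding genes 18.6% and 20.7%, so an excess of higher over lower calls was present in other non-coding genes too. A rise of at least 2-fold was called for 7 of the 86, Six3os1, Pax6os1, Lhx1os, Etaa1os, Emx2os, Epb41l4aos and Mkln1os, beside 4.49% of all genes. Pax6os1 and Etaa1os, counted in these 7 and in the 22, passed the count filter through dcKO samples only, so their direction was fixed. The median log2 fold change was 0.49 over the 86, 0.28 over the other non-coding genes and -0.00 over the 14526 protein-coding genes, and 69 of the 86 had a positive value. Every dcKO sample was above every control for 20 of the lncRNAs and below for 1, where 16.7% and 17.7% of all genes tested behaved so and the groups did not overlap for 34.3% of them. Pax6os1 and Etaa1os are also among the 69 and the 20, and add nothing to either count. Without dcKO 1 and 2, the samples rich in choroid plexus RNA, 8 lncRNAs were called higher and none lower with 2 dcKO samples left. The share of all genes called in that fit is not given here, so this count has no background. In that fit the median log2 fold change was 0.38 over the lncRNAs and 0.02 over all genes. The share of all counts that fell on non-coding genes was 1.19% to 1.57% in controls and 1.94% to 2.13% in dcKO, or 1.03% to 1.37% and 1.57% to 1.81% without mitochondrial genes. Mitochondrial genes held 2.06% to 3.23% of counts in controls and 3.57% to 5.47% in dcKO, and the part of these shifts in the calls was not tested.

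**Figure D1:**
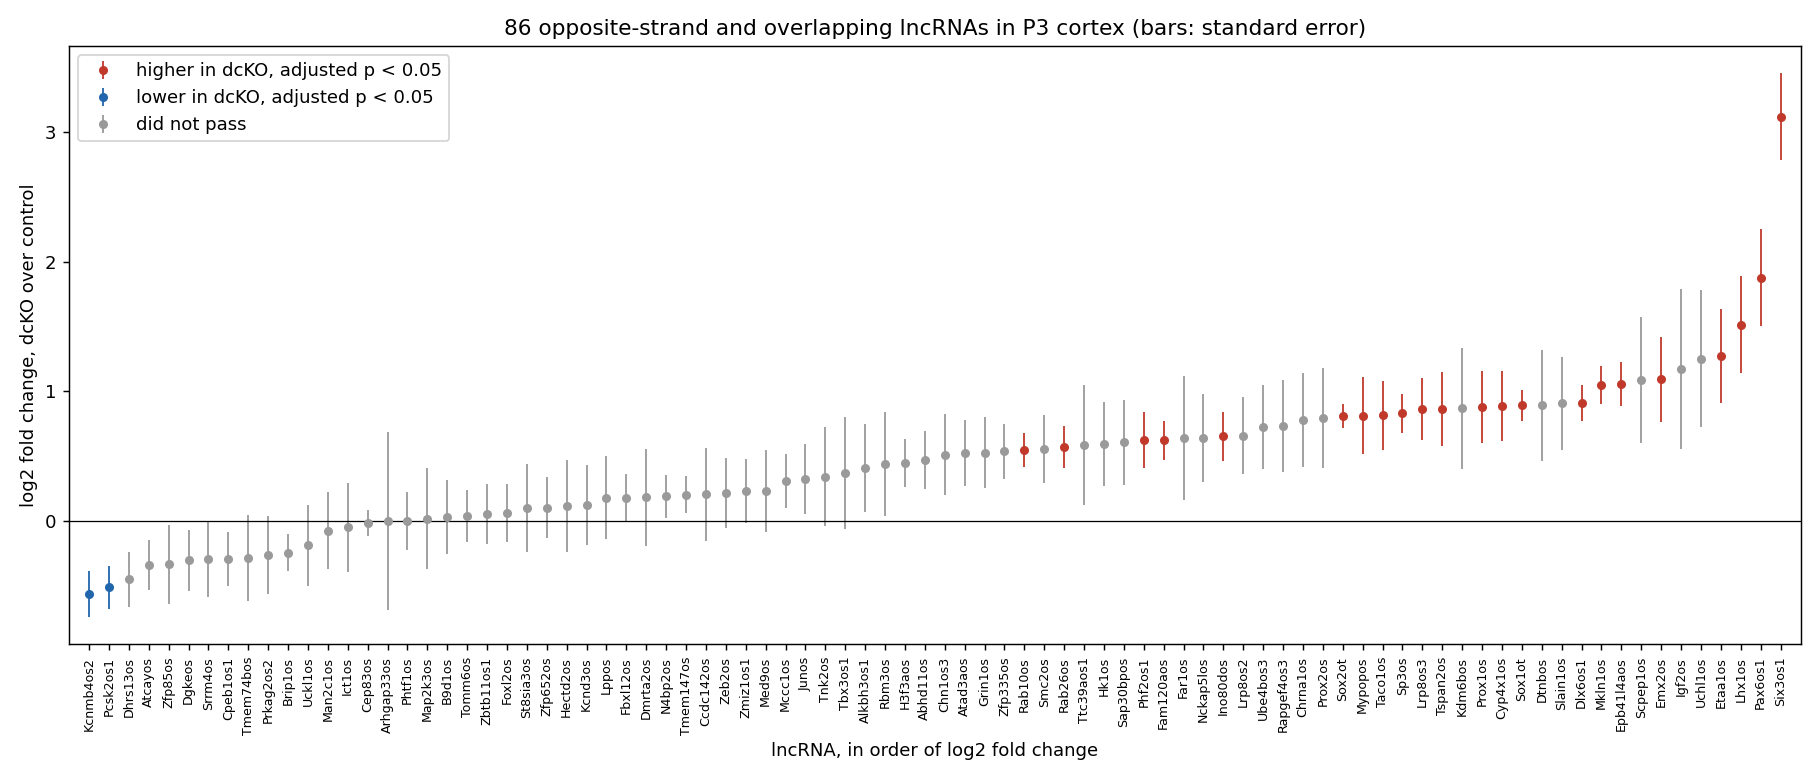
Log2 fold change of each of the 86 lncRNAs in dcKO over control cortex (vertical axis; 4 samples a group), in rising order along the horizontal axis, with bars for the standard error. The 22 red points are higher and the 2 blue points lower at an adjusted p under 0.05; 69 of the 86 points lie above 0 and Six3os1 stands highest at 3.12.

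These were scarce RNAs. The median of the mean levels was 0.940 CPM in controls and 1.16 CPM in dcKO, 35 of the 86 stayed below 1 CPM in both groups, and 8 reached 10 CPM in either. The count of 3 reads that serves as the floor was worth at most 0.148 CPM in any sample. Their summed level ran from 238 to 275 CPM in controls and from 351 to 395 CPM in dcKO, so the groups did not overlap. Much of this sum came from a few abundant lncRNAs. Without the most abundant ones it ran from 119 to 140 CPM in controls and from 156 to 180 CPM in dcKO. Counts of at least 10 in every sample were present for 57 of the 86. Pax6os1 and Etaa1os had fewer than 10 counts in every control and were kept through the dcKO samples alone, so they had to be higher and their calls add nothing to the count.

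By the annotation 83 of the 86 lie on the strand opposite to the gene they are named for. In 63 pairs the 2 genes overlap on opposite strands, in 17 they start back to back without overlap (head to head), in 3 they end facing each other (tail to tail), and Sox2ot and Sox1ot run over their partners on the same strand. No protein-coding gene was found under the name that Ict1os points to, and Lrp8os2 and Lrp8os3 share Lrp8, which left 85 pairs with 84 partners. Of the overlapping opposite-strand lncRNAs 15 (23.8%) were higher and 2 (3.17%) lower, and of the head-to-head ones 4 (23.5%) were higher and none lower. From the tail-to-tail group 1 was higher, and both same-strand ones were higher. Over all genes tested 18.5% were higher and 18.8% lower. Pax6os1 (overlapping) and Etaa1os (head to head) are in these counts, although kept through dcKO samples alone. The library kit does not mark the strand of a read, so where exons overlap a read cannot be assigned by strand. Exon bases were shared with a protein-coding gene by 60 of the 86, with a median share of 5.74% of exon bases over the 86 and a maximum of 63.0%. Of the 26 that share none, 10 were higher and none was lower, beside the same 18.5% and 18.8% of all genes. These 10 include Pax6os1.

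**Figure D2:**
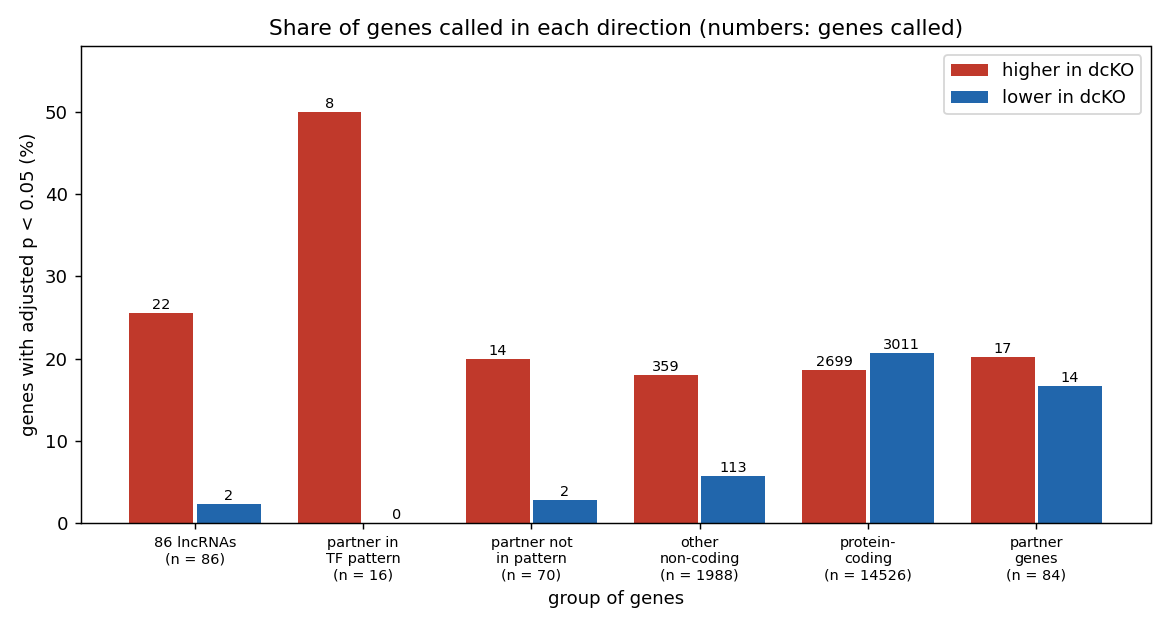
Percentage of genes (vertical axis) with an adjusted p under 0.05 in dcKO against control cortex, higher in red and lower in blue, for 6 groups of genes (horizontal axis, n under each), with the number of genes above each bar. The 86 lncRNAs were 25.6% higher and 2.33% lower, and 8 of the 16 whose partner matches the symbol pattern for transcription factors (TF) were higher.

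Several lncRNAs next to transcription factor genes were higher. A pattern of gene symbols for transcription factors matched 16 partners, and 8 of their 16 lncRNAs were higher in dcKO and none was lower, with a median log2 fold change of 0.80, where 18.5% of all genes were higher. Of the other 70 lncRNAs 14 were higher and 2 were lower, with a median of 0.44, and the difference between these groups was not tested. The pattern misses transcription factor genes such as Sp3, Jun, Dmrta2 and Mypop, and with these added, a choice made after seeing the data, 10 of 20 were higher against 12 of the other 66. Without Pax6os1, which passed the count filter through dcKO samples only, 7 of the 15 left by the pattern were higher. The 8 matched by the pattern were Six3os1, Pax6os1, Lhx1os, Emx2os, Dlx6os1, Sox1ot, Prox1os and Sox2ot. Of the 8 that did not pass, Zfp335os, Prox2os, Tbx3os1, Zeb2os, Zfp652os, Foxl2os and Zbtb11os1 had positive log2 fold changes of 0.05 to 0.79 and Zfp85os had -0.34.

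Six3os1 (ENSMUSG00000093460, chr17:85600651-85618398, minus strand of mm10) overlaps the 5′ part of Six3, which encodes a homeobox factor of the forebrain and eye. Six3os1 shares exon bases with a protein-coding gene, so reads of that gene may be among its counts. It stood at 0.552, 1.48, 0.664 and 0.382 CPM in control 1 to 4 and at 8.51, 5.13, 6.79 and 5.64 CPM in dcKO 1 to 4. Each dcKO sample lay well above each control, and control 2 was the highest of the controls. Its log2 fold change was 3.12 ± 0.34 (SE; edgeR adjusted p = 3.95e-05). Six3 itself stood at 0.737, 3.20, 1.26 and 0.382 CPM in controls and 8.76, 3.05, 7.95 and 6.64 CPM in dcKO. The groups overlapped for Six3, since dcKO 2 lay below control 2. For Six3 the log2 fold change was 2.28 ± 0.59 (edgeR adjusted p = 0.0173), and the call was lost without control 3 (adjusted p = 0.0613). The ratio of Six3os1 to Six3 did not pass the ratio test described further on. Striatal markers, 7 of 10 of which were higher, summed to 127 to 189 CPM in controls and 386 to 765 CPM in dcKO, with control 2 the highest control here too. Without Ppp1r1b, the most abundant of them in dcKO, the sums were 86.6 to 140.03 CPM in controls and 110 to 424 CPM in dcKO, and dcKO 2 lay below control 2, as it did for Six3. The part of such cells in the Six3 pair was not tested.

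Dlx6os1 (ENSMUSG00000090063, chr6:6820189-6871592, minus strand) runs against Dlx6, a homeobox gene of ventral forebrain progenitors and GABAergic neurons, without sharing exon bases with it. It measured 21.5, 25.2, 19.8 and 20.5 CPM in control 1 to 4 and 46.6, 32.03, 36.2 and 48.5 CPM in dcKO 1 to 4. The lowest dcKO sample was above the highest control. On the log2 scale Dlx6os1 rose by 0.91 ± 0.14 (edgeR adjusted p = 0.000348). Dlx6 rose from 6.55 ± 1.17 to 15.3 ± 2.92 CPM (SD, n = 4; log2 fold change 1.23 ± 0.17, edgeR adjusted p = 0.000152), without overlap of the groups. The lncRNA and the gene thus moved together, and the change of their ratio, -0.32 ± 0.18 on the log2 scale, did not pass (limma adjusted p = 0.232). Of 10 interneuron markers 8 were higher and 1 lower, and the list summed to 585 to 597 CPM in controls and 781 to 885 CPM in dcKO. Whether the Dlx6 pair followed the number of such cells was not tested.

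Sox2ot and Sox1ot span the genes of related SOX factors that mark neural stem and progenitor cells. Sox2ot (ENSMUSG00000105265, chr3:34104270-34682619, plus strand) holds Sox2 inside an intron on the same strand and shares no exon bases with it. Sox2ot read 27.4, 31.1, 27.2 and 26.3 CPM in controls and 54.7, 48.5, 45.2 and 47.5 CPM in dcKO. The groups were far apart and tight, and the log2 fold change was 0.81 ± 0.09 (edgeR adjusted p = 4.62e-05). Sox2 rose from 56.3 ± 3.58 to 92.3 ± 8.10 CPM (log2 fold change 0.71 ± 0.09, edgeR adjusted p = 6.80e-05), and the change of the ratio was 0.09 ± 0.15 on the log2 scale (limma adjusted p = 0.693). Sox1ot (ENSMUSG00000047935, chr8:12385771-12436768, plus strand) read 28.9, 26.2, 24.7 and 21.9 CPM in controls and 51.9, 47.8, 37.7 and 51.1 CPM in dcKO, with dcKO 3 lowest of its group and still above every control. The log2 fold change was 0.89 ± 0.12 (edgeR adjusted p = 0.000147), beside 0.50 ± 0.10 for Sox1 (edgeR adjusted p = 0.00205), and the change of the ratio, 0.38 ± 0.17, did not pass (limma adjusted p = 0.149).

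Pax6os1 (ENSMUSG00000086029, chr2:105536080-105670330, minus strand) starts inside Pax6, the paired-box gene of cortical radial glia, and shares no exon bases with it. It was close to the floor in controls, at 0.230, 0.197, 0.133 and 0.174 CPM, and reached 0.727, 0.932, 0.682 and 0.392 CPM in dcKO. The groups did not overlap, and the log2 fold change was 1.88 ± 0.37 (edgeR adjusted p = 0.00216). Since Pax6os1 passed the count filter through dcKO samples only, its direction was fixed. Pax6 rose from 19.5 ± 4.54 to 47.4 ± 5.86 CPM (log2 fold change 1.28 ± 0.15, edgeR adjusted p = 6.45e-05). Lhx1os (ENSMUSG00000087211, chr11:84525660-84535831, plus strand) starts 125 bases from the start of Lhx1, a LIM-homeodomain factor gene, and points away from it. It read 0.645, 0.394, 0.564 and 0.208 CPM in controls and 1.07, 2.08, 1.19 and 0.875 CPM in dcKO, again without overlap. The log2 fold change was 1.51 ± 0.37 (edgeR adjusted p = 0.00746), and Lhx1 rose from 1.36 ± 0.335 to 5.13 ± 2.14 CPM (log2 fold change 1.89 ± 0.30, edgeR adjusted p = 0.000521). For Lhx1os and Lhx1, dcKO 2 was the highest sample of all, and without dcKO 1 and 2 the call of Lhx1os was lost (adjusted p = 0.0747). That sample was also the highest in the list of diencephalon and midbrain markers, 5 of whose 9 tested genes were higher, at 102 CPM against 69.7 to 83.0 CPM in the other dcKO samples and 57.2 to 66.5 CPM in controls. Without Slc17a6, the most abundant gene of the list, the sums were 18.2 to 23.7 CPM in dcKO, dcKO 2 again highest, and 8.28 to 10.8 CPM in controls. Gbx2 and Pou4f1, genes of thalamus and habenula, were near 0 in controls (means 0.021 and 0.105 CPM) and reached 1.49 and 3.31 CPM in dcKO. The part of such tissue in the Lhx1 pair was not tested.

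**Figure D3:**
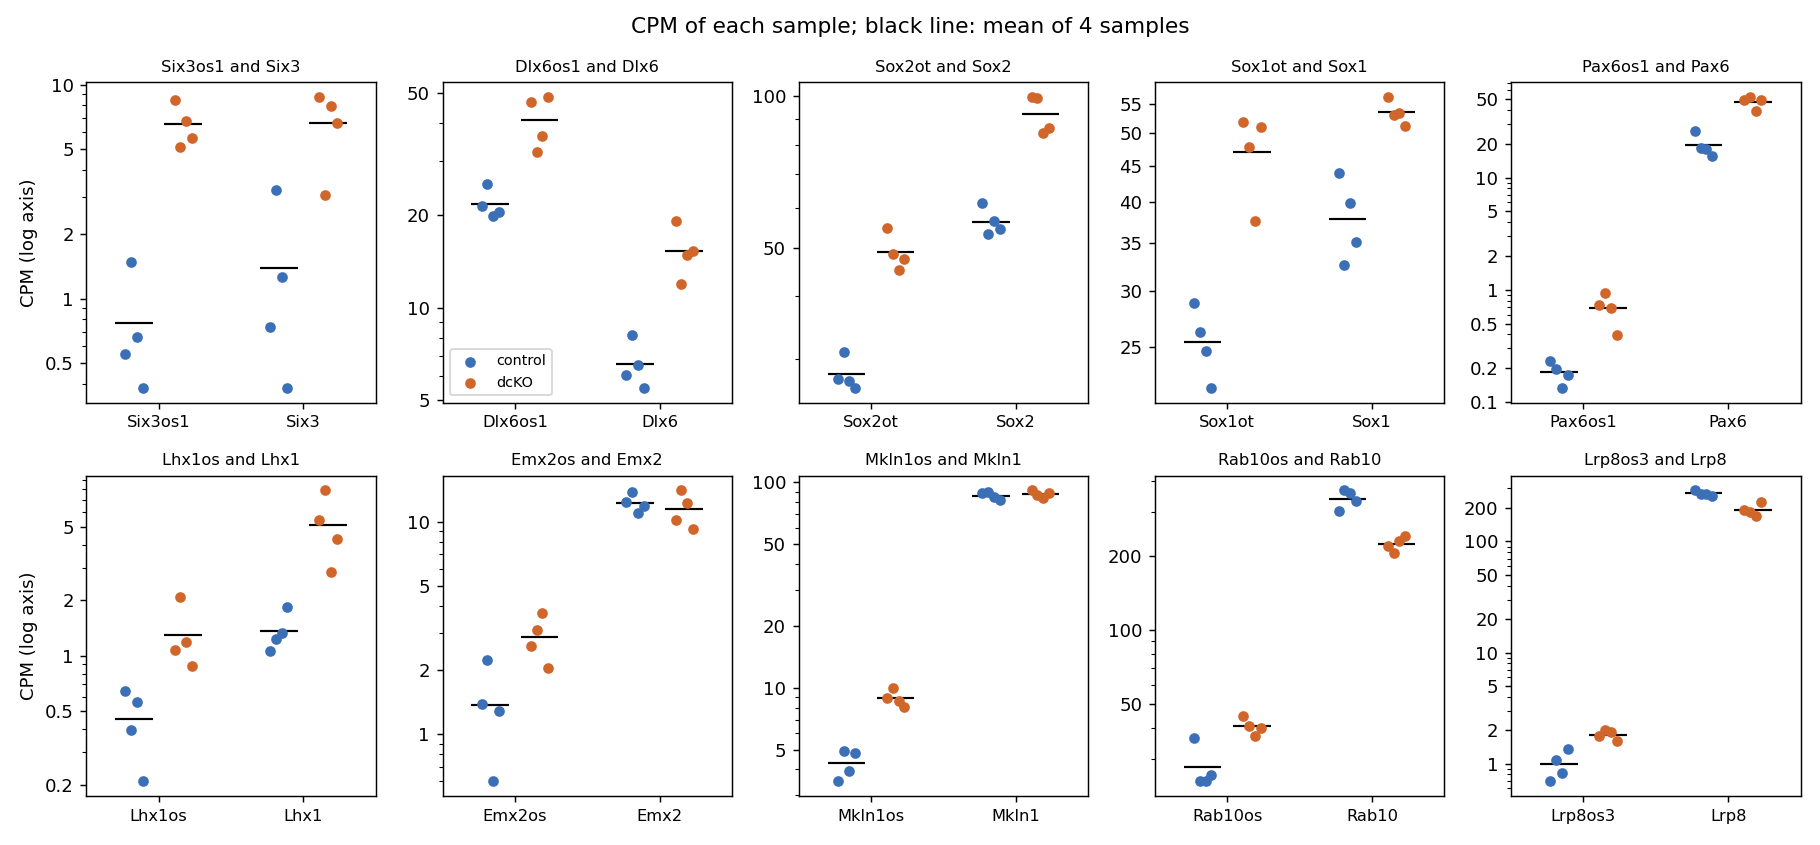
CPM of each sample (vertical axis, logarithmic) for 10 lncRNAs and, to the right in each panel, their partner genes; blue points are the 4 controls, orange points the 4 dcKO samples and black lines the group means. Six3os1 is at 0.382 to 1.48 CPM in controls and 5.13 to 8.51 CPM in dcKO, Mkln1 and Emx2 overlap between the groups while their lncRNAs have higher dcKO means, and Rab10 and Lrp8 are lower in dcKO while Rab10os and Lrp8os3 are higher.

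Emx2os and Prox1os rose beside homeobox genes that did not pass the test. Emx2os (ENSMUSG00000087095, chr19:59425104-59458635, minus strand) starts 263 bases inside Emx2, a patterning gene of the dorsal telencephalon, and 5.26% of its exon bases lie in exons of Emx2. It stood at 1.38, 2.22, 0.598 and 1.28 CPM in controls and 2.61, 3.09, 3.72 and 2.05 CPM in dcKO, where dcKO 4 lay below control 2. Emx2os rose by 1.09 ± 0.33 on the log2 scale (edgeR adjusted p = 0.0204). The call was lost without control 4 (edgeR adjusted p = 0.0533) and without dcKO 1 and 2 together (0.102). Emx2 was 12.3 ± 1.22 and 11.4 ± 2.14 CPM (log2 fold change -0.10 ± 0.14, edgeR adjusted p = 0.617). The ratio of Emx2os to Emx2 was higher in every dcKO sample than in every control, by 1.23 ± 0.31 on the log2 scale (limma adjusted p = 0.0208). Prox1os, against a homeobox gene of interneurons and dentate granule cells, rose from 0.693 ± 0.229 to 1.30 ± 0.274 CPM with 1 dcKO sample at the level of the highest control (log2 fold change 0.88 ± 0.28, edgeR adjusted p = 0.0265), and this call was lost without control 1, 2 or 4 or dcKO 1 or 2 (adjusted p = 0.0504 to 0.0779). Prox1 had a log2 fold change of 0.27 ± 0.14 that did not pass (edgeR adjusted p = 0.145).

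Mkln1os, Epb41l4aos and Etaa1os were the lncRNAs of other genes with the largest called rises, and none of their partners passed. Mkln1os (ENSMUSG00000086212, chr6:31366885-31398773, minus strand) shares its first 39 bases with Mkln1, which encodes muskelin, a subunit of an E3 ubiquitin ligase. It measured 3.50, 4.93, 3.95 and 4.79 CPM in controls and 8.89, 9.96, 8.66 and 8.03 CPM in dcKO. The groups did not overlap, and the log2 fold change was 1.05 ± 0.15 (edgeR adjusted p = 0.000239) where that of Mkln1 was 0.03 ± 0.07 (edgeR adjusted p = 0.756). Epb41l4aos (ENSMUSG00000087590, chr18:33794892-33795986, plus strand) ends 341 bases from the end of Epb41l4a, a band 4.1 family gene. It rose from 5.29, 6.06, 5.98 and 7.91 CPM in controls to 12.4, 16.6, 13.3 and 10.4 CPM in dcKO, with no overlap (log2 fold change 1.05 ± 0.17, edgeR adjusted p = 0.000517), while Epb41l4a had -0.21 ± 0.12 (edgeR adjusted p = 0.166).

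Etaa1os (ENSMUSG00000086468, chr11:17953970-17959578, plus strand) starts 95 bases from Etaa1, an activator of the ATR kinase, and runs away from it. Its levels were 0.230, 0.247, 0.266 and 0.174 CPM in controls and 0.855, 0.551, 0.375 and 0.483 CPM in dcKO. Its log2 fold change was 1.27 ± 0.36 (edgeR adjusted p = 0.0154), and the call was lost without dcKO 1, its highest sample (adjusted p = 0.0519). It was also lost without dcKO 1 and 2 together (edgeR adjusted p = 0.154). Since Etaa1os passed the count filter through dcKO samples only, its direction was fixed. Etaa1 overlapped between the groups at 13.1 ± 0.787 and 13.6 ± 1.65 CPM (edgeR adjusted p = 0.711). Cyp4x1os, against a cytochrome P450 gene, rose from 0.552 ± 0.145 to 1.04 ± 0.179 CPM (log2 fold change 0.89 ± 0.27, edgeR adjusted p = 0.0218), but the call was lost without control 2 or 3 or dcKO 1 or 2 (adjusted p = 0.0573 to 0.0691), and 22.5% of its exon bases are shared with Cyp4x1.

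The start regions of 5 of these lncRNAs are shown, 3 because the partner starts within the window. The other 2, Six3os1 and Pax6os1, had the largest called log2 fold changes, with a partner that starts 4790 and 1430 bases away. Pax6os1 passed the count filter through dcKO samples only. The windows below run from 250 bases before to 50 bases after the start of the lncRNA, 5′ to 3′ on its own strand, from the RefSeq annotation of GRCm38.p6, and position 251 is the first transcribed base. In the first 3, capitals mark the stretch between the start of the lncRNA and the start of its partner, which lies at position 126 for Lhx1, 156 for Etaa1 and 289 for Mkln1, so the last pair overlaps at its starts. In the other 2, capitals mark matches to CCAAT or TAATTA on either strand.
Lhx1os, chr11:84525410-84525709, plus strand: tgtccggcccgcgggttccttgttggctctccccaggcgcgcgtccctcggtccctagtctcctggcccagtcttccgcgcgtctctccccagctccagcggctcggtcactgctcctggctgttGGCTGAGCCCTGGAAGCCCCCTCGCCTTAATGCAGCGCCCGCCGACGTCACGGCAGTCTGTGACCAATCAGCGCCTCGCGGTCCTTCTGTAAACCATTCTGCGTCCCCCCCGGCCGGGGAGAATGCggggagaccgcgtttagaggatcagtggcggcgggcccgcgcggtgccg
Etaa1os, chr11:17953720-17954019, plus strand: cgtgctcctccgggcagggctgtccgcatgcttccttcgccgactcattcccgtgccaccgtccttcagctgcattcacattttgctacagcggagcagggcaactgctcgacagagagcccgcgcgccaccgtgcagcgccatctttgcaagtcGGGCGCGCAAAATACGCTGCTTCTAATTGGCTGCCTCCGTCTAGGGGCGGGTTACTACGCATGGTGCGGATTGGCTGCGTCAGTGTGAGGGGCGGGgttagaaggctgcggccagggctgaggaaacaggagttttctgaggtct
Mkln1os, chr6:31398724-31399023, minus strand: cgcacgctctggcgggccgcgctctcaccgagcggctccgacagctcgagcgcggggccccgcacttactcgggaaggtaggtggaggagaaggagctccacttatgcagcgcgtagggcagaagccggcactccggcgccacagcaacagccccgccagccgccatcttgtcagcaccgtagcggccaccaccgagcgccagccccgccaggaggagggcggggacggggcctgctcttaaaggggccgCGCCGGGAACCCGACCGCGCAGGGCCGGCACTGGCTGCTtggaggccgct
Six3os1, chr17:85618347-85618646, minus strand: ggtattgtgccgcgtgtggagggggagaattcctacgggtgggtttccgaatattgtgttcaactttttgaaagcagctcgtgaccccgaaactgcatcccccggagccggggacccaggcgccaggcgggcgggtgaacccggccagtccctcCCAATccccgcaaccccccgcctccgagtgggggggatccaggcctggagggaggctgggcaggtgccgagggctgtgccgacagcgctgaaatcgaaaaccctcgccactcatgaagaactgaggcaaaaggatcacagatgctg
Pax6os1, chr2:105670281-105670580, minus strand: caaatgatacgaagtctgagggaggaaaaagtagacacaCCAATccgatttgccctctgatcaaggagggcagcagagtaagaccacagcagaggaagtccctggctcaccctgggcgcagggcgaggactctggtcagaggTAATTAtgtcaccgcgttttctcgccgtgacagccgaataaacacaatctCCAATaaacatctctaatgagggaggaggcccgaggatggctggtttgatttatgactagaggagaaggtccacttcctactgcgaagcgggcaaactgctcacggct

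Start windows were matched for 60 of the 86 lncRNAs, and in 12 of them the partner starts inside the window. CG dinucleotides were frequent, with a median of 16.5 in a window of 300 bases against 7 over all 32851 RefSeq windows, and a median of 23 in the 15 windows of lncRNAs called higher. Of 5 motifs searched on both strands, each counted separately, CCAAT lay in 24 of the 60 windows and in 37.4% of all windows. TATAAA lay in 5 (13.6% of all windows), CAGCTG in 9 (16.3%), TAATTA in 4 (5.29%) and ACAAAG in 7 (18.7%).

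Over the 84 partners 17 were higher and 14 were lower, with a median log2 fold change of 0.06, shares close to the 18.5% and 18.8% of all genes, and with libraries scaled by their totals the split was 25 to 10. Beside the 22 lncRNAs called higher the partner was higher in 7 pairs, lower in 2 and did not pass in 13. A partner that did not pass was not thereby shown to differ from its lncRNA, and in 8 of the 22 pairs the ratio test described further on passed with a higher ratio. Those 8 include Etaa1os, which was kept through dcKO samples only. Beside the 2 lncRNAs called lower both partners were lower. The 2 changes had the same sign in 49 of 85 pairs. Across these pairs Pearson's r of the log2 fold changes was 0.54 and Spearman's rho 0.29, and r was 0.40 without Six3os1. The points share the same 8 libraries, and many pairs also share exon bases, so these values are a description. In controls the partner had the higher level per kilobase of exon in 72 of 85 pairs, with a median ratio of 11.8 to the lncRNA.

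**Figure D4:**
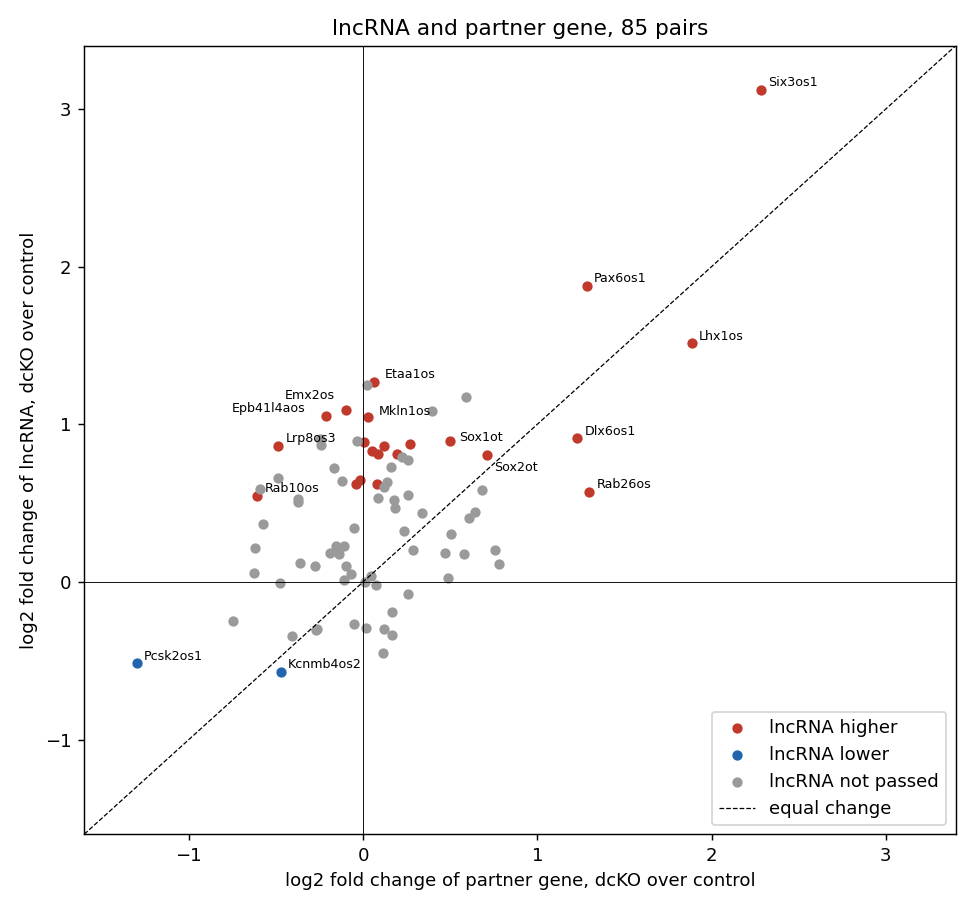
Log2 fold change of each lncRNA (vertical axis) against that of its partner gene (horizontal axis) in dcKO over control cortex for 85 pairs; red and blue points are lncRNAs called higher or lower, and the dashed line marks equal change. Points for transcription factor pairs such as Six3os1, Pax6os1 and Lhx1os lie at the upper right, while Rab10os and Lrp8os3 lie at the upper left, with a partner that fell.

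In 2 pairs the lncRNA and the gene were both called, in opposite directions. Rab10os (ENSMUSG00000079179, chr12:3235504-3250377, plus strand) overlaps the 3′ end of Rab10, which encodes a small GTPase of vesicle transport, and 2.33% of its exon bases are shared with it. Rab10os read 36.6, 24.3, 24.5 and 25.9 CPM in controls and 44.7, 40.9, 37.01 and 39.8 CPM in dcKO. Control 1 was close to dcKO 3 but below it, and the log2 fold change was 0.55 ± 0.13 (edgeR adjusted p = 0.00617). Rab10 fell from 341 ± 29.2 to 224 ± 15.3 CPM (log2 fold change -0.61 ± 0.08, edgeR adjusted p = 0.000164). Lrp8os3 (ENSMUSG00000087200, chr4:107793161-107802064, minus strand) starts 197 bases from Lrp8, a reelin receptor gene, and runs away from it. Lrp8os3 read 0.691, 1.08, 0.830 and 1.35 CPM in controls and 1.75, 1.99, 1.91 and 1.60 CPM in dcKO, without overlap (log2 fold change 0.86 ± 0.24, edgeR adjusted p = 0.0141). Lrp8 fell from 271 ± 13.5 to 193 ± 24.5 CPM (log2 fold change -0.49 ± 0.09, edgeR adjusted p = 0.00144). Without dcKO 1 and 2 the log2 fold changes were 0.47 and 0.82, close to those with all samples, and neither passed with 2 dcKO samples left (edgeR adjusted p = 0.0926 and 0.0935).

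The ratio of lncRNA to partner was tested directly. It was higher in dcKO in 13 of the 85 pairs and lower in 1 (limma on the difference of log2 CPM, adjusted over 1906 non-coding and coding pairs), beside 14.7% higher and 2.36% lower among all pairs fitted and 14.7% and 2.42% among the other pairs. The median change of the log2 ratio was 0.35 over the 85 pairs and 0.31 over the 1821 other pairs, so a shift towards the non-coding gene was as common among other pairs. The count of higher ratios was 23 without control 1, 6 without control 3, 5 without dcKO 1 and 6 without dcKO 2. Of the 13, the ratio rose by 1.36 for Lrp8os3, 1.26 for Epb41l4aos, 1.23 for Emx2os, 1.17 for Rab10os, 1.14 for Lrp8os2, 1.02 for Mkln1os and 0.98 for Etaa1os. Since Etaa1os passed the count filter through dcKO samples only, its higher ratio adds nothing to the count. In 5 of the 13, the lncRNA did not pass on its own or fell and the partner fell. These were Hk1os with Hk1 (hexokinase), Chn1os3 with Chn1 (a Rac GTPase-activating protein), Zeb2os with Zeb2 (a zinc finger homeobox factor), Lrp8os2 with Lrp8, and Pcsk2os1 with Pcsk2 (a prohormone convertase), with changes of 0.84 to 1.14.

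Rab26os was the pair with a lower ratio. The lncRNA rose from 2.20 ± 0.0985 to 3.27 ± 0.289 CPM (log2 fold change 0.57 ± 0.16, edgeR adjusted p = 0.0157), with every dcKO sample above every control, while Rab26, a GTPase gene of secretory vesicles, rose from 5.499 ± 0.817 to 13.5 ± 0.433 CPM (1.30 ± 0.13, edgeR adjusted p = 2.06e-05). The ratio fell by 0.74 on the log2 scale (limma adjusted p = 0.0442). The call of Rab26os was lost without control 3 (edgeR adjusted p = 0.0506), with no filter on low counts (0.0542) and without dcKO 1 and 2 (0.0816). No pair had a lower ratio when the ratio test used a prior count of 0.5 or a replicate block.

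**Figure D5:**
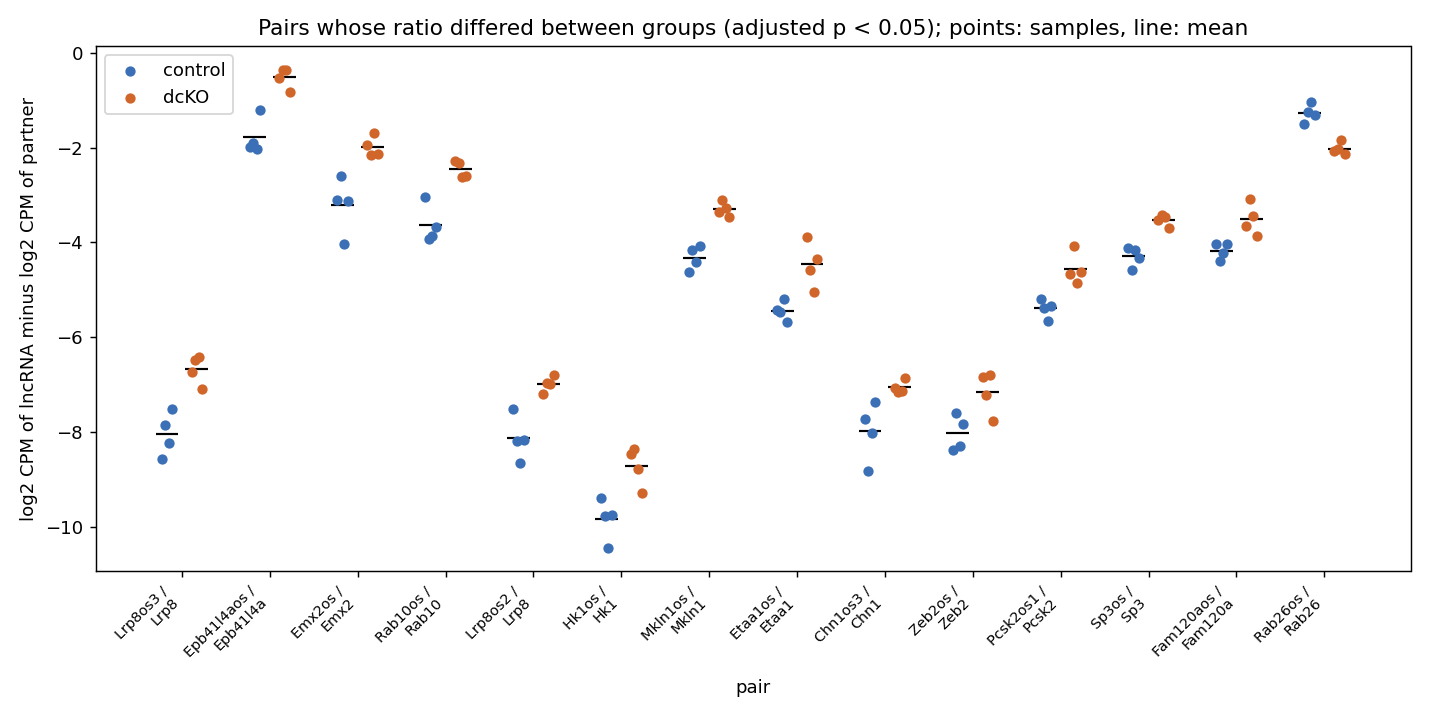
Log2 CPM of the lncRNA minus log2 CPM of its partner (vertical axis) in each sample for the 14 pairs whose ratio passed (horizontal axis), with controls in blue, dcKO in orange and a line at each group mean. In 13 pairs the dcKO mean is above the control mean and in Rab26os it is below; Zeb2os is a pair whose groups overlap.

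The 2 lncRNAs that fell did so beside partners that fell. Kcnmb4os2 (ENSMUSG00000085837, chr10:116473163-116475319, plus strand) read 9.58, 7.59, 8.37 and 10.6 CPM in controls and 5.94, 6.06, 7.88 and 4.53 CPM in dcKO, where dcKO 3 lay above control 2. The log2 fold change was -0.57 ± 0.18 (edgeR adjusted p = 0.0233), and that of Kcnmb4, a subunit of the BK potassium channel, was -0.47 ± 0.12 (edgeR adjusted p = 0.00820). Since 34.2% of its exon bases lie in exons of Kcnmb4, reads of the gene may be among its counts, and the call was lost without control 4 or dcKO 1 or 2 (adjusted p = 0.0506 to 0.0757). Pcsk2os1 (ENSMUSG00000086171, chr2:143535476-143547837, minus strand) read 4.33, 4.14, 3.39 and 4.58 CPM in controls and 3.16, 2.75, 3.10 and 2.47 CPM in dcKO, the only lncRNA of the 86 with every dcKO sample below every control. The log2 fold change was -0.52 ± 0.17 (edgeR adjusted p = 0.0295), and Pcsk2 fell from 175 ± 11.8 to 70.9 ± 19.7 CPM. That call was lost without control 1, 2 or 4 or dcKO 2 or 4 (adjusted p = 0.0546 to 0.0891), with library totals (0.0844), with no filter on low counts (0.0638) and with the replicate block (0.0542), and that of Kcnmb4os2 with library totals (0.0622).

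The remaining higher lncRNAs had partners that did not pass. Sp3os, against the gene of the zinc finger factor SP3, rose from 3.60 ± 0.319 to 6.40 ± 0.790 CPM (log2 fold change 0.83 ± 0.15, edgeR adjusted p = 0.00123), and Fam120aos, against an RNA-binding protein gene, from 6.84 ± 0.908 to 10.5 ± 1.79 CPM (0.62 ± 0.15, edgeR adjusted p = 0.00700). In both the groups did not overlap and the ratio to the partner passed, at 0.77 and 0.66. Without dcKO 1 and 2 the call of Fam120aos was lost (edgeR adjusted p = 0.0686). Ino80dos, beside a subunit gene of the INO80 remodeler, rose by 0.65 ± 0.19 (edgeR adjusted p = 0.0172), and Tspan2os, beside a tetraspanin gene, by 0.86 ± 0.28 (edgeR adjusted p = 0.0302). Phf2os1, whose start overlaps that of the histone demethylase gene Phf2, rose by 0.62 ± 0.21 (edgeR adjusted p = 0.0370). Taco1os and Mypopos rose by 0.81 each (edgeR adjusted p = 0.0305 and 0.0483) with overlapping groups, and 38.04% of the exon bases of Taco1os and 31.9% of those of Ino80dos are shared with coding genes. These 5 calls depended on single samples. Ino80dos lost its call without control 3 or 4, Tspan2os without control 1 or 4 or dcKO 1 or 2, Taco1os without control 1, 2 or 3 or dcKO 1, 2 or 3, Mypopos without control 2, 3 or 4 or dcKO 1, 2 or 4, and Phf2os1 without control 1, 3 or 4 or dcKO 1, 2 or 4, with adjusted p = 0.0509 to 0.139. With DESeq2, Tspan2os (adjusted p = 0.0794), Mypopos (0.0589) and Phf2os1 (0.0577) did not pass, nor did Cyp4x1os (0.0508). With no filter on low counts Tspan2os (edgeR adjusted p = 0.0663), Phf2os1 (0.0823) and Rab26os (0.0542) did not. DESeq2 called 18 of the 86 lncRNAs higher and 2 lower, and its share over all genes is not given here. Of all 24 called lncRNAs 12 kept their call in each of the 8 fits that left out a sample.

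Among the 62 lncRNAs that did not pass, the partner was higher in 10 pairs and lower in 11. The most abundant were Brip1os at 22.9 ± 2.15 CPM in controls and 19.3 ± 4.26 in dcKO, Cep83os at 13.7 ± 0.364 and 13.5 ± 0.888, Tmem147os at 7.79 ± 0.946 and 8.96 ± 1.21, Fbxl12os at 3.78 ± 0.752 and 4.29 ± 0.435, and Zfp335os at 2.86 ± 0.316 and 4.17 ± 1.08. Each of these overlapped between the groups, with log2 fold changes of -0.25 to 0.53. Brip1, a DNA helicase gene beside Brip1os, was lower (log2 fold change -0.74 ± 0.17, edgeR adjusted p = 0.00465). Fbxl12, an F-box gene beside Fbxl12os, was higher (0.58 ± 0.15, edgeR adjusted p = 0.00939). Uchl1os, known for a transcript that raises translation of Uchl1, had the largest log2 fold change of those that did not pass, 1.25 ± 0.53 at 0.0986 to 0.598 CPM in controls and 0.273 to 0.905 CPM in dcKO (edgeR adjusted p = 0.0811). Its groups overlapped.

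Well-known lncRNAs with other kinds of names gave a mixed picture. Of 27 listed 24 were tested, 11 (45.8%) were higher and 4 (16.7%) were lower, with a median log2 fold change of 0.54. Over all genes tested 18.5% were higher and 18.8% lower, and over the other non-coding genes 18.1% and 5.68%. A larger share was thus higher in this list than the 25.6% of the 86 lncRNAs. Dlx1as, the antisense RNA of Dlx1, was 6.94 to 7.69 CPM in controls and 12.8 to 19.9 CPM in dcKO (log2 fold change 1.204 ± 0.14), and Firre, a nuclear organizing RNA, had a log2 fold change of 1.52 ± 0.23. Pantr1, a lncRNA beside the gene of the cortical neuron factor Pou3f3, was lower, with 85.1 to 105 CPM in controls and 37.5 to 76.1 CPM in dcKO (log2 fold change -0.90 ± 0.19).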

How the data were processed

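The deposited files hold raw counts per gene, 1 file a sample. The authors prepared TruSeq v2 libraries, which do not mark strand, aligned reads to mm10 and counted them per gene with featureCounts; strand and overlap settings are not given in the sources used here. Gene types, positions and partners came from GENCODE M21 (48349 of 48709 ids matched). Genes with at least 10 counts in at least 4 samples were tested in R 4.3.3 with edgeR 4.0.16 (TMM, robust quasi-likelihood, adjusted p under 0.05). CPM use TMM-scaled totals. The ratio of lncRNA to partner (prior count 2) was tested with limma 3.58.1. DESeq2 1.42.0, other scalings and filters, blocks and left-out samples were alternatives. In simulated counts on 16455 genes, 200 genes were changed 2-fold in dcKO against control, and edgeR recovered 91.5% of these. The changed genes were drawn only from genes with higher mean counts. The ratio test recovered 27.5% of the 40 changed pairs among 1812. Recovery was not measured for the lncRNAs alone, whose median level was 1.06 CPM against 19.7 CPM over all genes tested. These shares therefore do not tell how often a 2-fold change in such scarce RNAs would be missed. The authors' methods list 4 control and 4 mutant tissues; whether each is a separate animal is not stated, so p-values measure the spread between these samples. The lncRNAs, gene lists and tests were chosen with earlier results of these data known. Genes described in full were those named in the rule (Dlx6os1, Six3os1, Sox2ot), up to 10 called in each direction with the largest log2 fold change, and the 5 most abundant that did not pass. The marker list sums without their most abundant gene, the wider set of transcription factor partners and the count without lncRNAs kept through dcKO samples only were added after seeing the data.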

Additional observations from a re-analysis of the deposited data

Results flagged for a closer look

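Fbxl12os in dcKO 2 stood apart from the other dcKO samples, at 3.64 CPM against 4.47 to 4.57 CPM, a gap of 0.888 of the range of the group. It was the only value found so far from its group among 76 groups of 4 samples tested, where about 3.8 would be found by chance.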

How the results depend on the processing

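The median of all genes moved from 0.02 to 0.15 on the log2 scale when libraries were scaled by their totals and that of the lncRNAs from 0.49 to 0.61, so both rose by about the same amount. Without dcKO 1 and 2 the lncRNAs called numbered 8 higher and 0 lower and the partners 11 higher and 7 lower, with fewer samples. Without lncRNAs that share exons with coding genes 10 were higher, among them Pax6os1, which was kept through dcKO samples only, and 0 lower. The number lower was 0 with library totals and 1 with no filter on low counts. Leaving out 1 sample gave 15 to 27 lncRNAs higher and 0 to 3 lower, 12 to 17 partners higher and 11 to 19 lower, and 5 to 23 ratios higher and 0 to 1 lower. A prior count of 0.5 gave 0 lower ratios. Shares over all genes are given only for the fit with all samples and no block. Counts from the other fits therefore have no background beside them. Where the cause of such a move is not the smaller number of samples or genes, the cause was not tested.

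The deviations of samples with the same number had correlations of 0.169, -0.0761, 0.205 and -0.0221, within the range for different numbers (-0.310 to 0.253). These values are too few to tell whether the numbers pair the samples. Samples with the same number did share a sequencing lane, lane 5 for numbers 1 and 2, lane 6 for 3 and lane 7 for 4. With a replicate block 25 lncRNAs were higher and 1 was lower, and 13 ratios were higher and 0 lower. With sequencing lane as a block 23 were higher and 2 lower.

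Among the lncRNAs and partners described in full, those that changed sign had log2 fold changes that did not pass. Cep83os was 0.10 with library totals and -0.051 to 0.0071 when 1 sample was left out (0.0071 without dcKO 2, 0.0063 without dcKO 3), Etaa1 -0.0015 without dcKO 1 and 2, Emx2 0.020 with library totals and Zfp335 -0.040 without dcKO 4 and up to 0.16 without another sample. The number of positive values over the 86 was 69, 74 with library totals and 66 to 72 when 1 sample was left out. Cyp4x1 was -0.010 with DESeq2, -0.0068 with the replicate block, -0.0064 with the lane block, -0.013 without control 3, -0.063 without control 4 and -0.14 without dcKO 4.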
